A study of Mus musculus with 6 samples.

Results

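Gastric mucosa of wild-type mice was compared between 50 and 10 weeks of age, on 2 of the series' 6 microarrays, the ones labelled wild type at 10 weeks and wild type at 50 weeks. Both mice were C57BL/6J without an engineered allele, and no treatment is given for either. RNA came from glandular stomach mucosa freed of its muscle wall. The 2 arrays of A4gnt-null mice (C57BL/6J, lacking the enzyme that adds the terminal N-acetylglucosamine of gastric gland mucin) at the same ages are given beside the wild-type values, and the 2 arrays of 5-week mice were left out. Each array holds the RNA of 1 mouse, so no difference below has a replicate check or a p-value. Age, the individual mouse, its dissection and its array cannot be told apart. The null arrays lie on another slide than the wild-type arrays, so genotype and slide cannot be told apart where levels of both are ranked.

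The glandular stomach is lined by surface mucous cells, which secrete MUC5AC, and is folded into glands. Acid-secreting parietal cells and pepsinogen-secreting chief cells fill much of the corpus glands, while gastrin-producing G cells mark the antrum. Gland mucous cells secrete MUC6. Stem cells of the isthmus and gland base divide throughout life to replace these lineages. A keratinised squamous forestomach, the duodenum, the pancreas and the liver border the mouse glandular stomach, and their RNA can be present in a dissected sample. In a bulk sample, fewer cells of a type and less RNA per cell cannot be told apart.

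Values are scaled levels, the processed signal of a probe divided by its array's 75th percentile, so that 1 is the signal below which 75% of non-control probes lie. Differences are log2 of the level at 50 weeks over that at 10 weeks, positive where the level was higher at 50 weeks. The scanner software's own signal error came to a median of 0.205 on the log2 scale for a difference between the 2 arrays. It covers the array alone and not the spread between mice, and it is written below as ± array error. Between 54.8% and 59.2% of 43020 spots per array were well above background over the 6 arrays, with 59.2% at 10 weeks and 55.9% at 50 weeks in wild type. The gastric label held on both arrays: all 14 parietal cell genes, all 11 surface mucous cell genes and all 9 gland mucous cell genes on the lists were measured. A4gnt itself was at 0.911 at 10 weeks and 0.912 at 50 weeks in wild type and not above background on either null array. The labels give no sex. Eif2s3y, a Y-linked gene, was at 1.82 and 2.36 in wild type and at 1.98 and 2.71 in null, and Xist, the X-inactivation RNA of females, was not above background on any of these 4 arrays. Skeletal muscle genes were few, with 2 of 9 listed genes above background on each wild-type array. The summed level of all 9 was 0.482 at 10 weeks and 0.466 at 50 weeks.

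Of 17154 genes well above background on both wild-type arrays, 440 were at least 2-fold higher at 50 weeks (2.56%) and 609 were at least 2-fold lower (3.55%). At 4-fold the counts were 51 and 108, and 14216 genes (82.9%) differed by less than 1.5-fold. The median difference over all genes was 0.04. Another 359 genes were above background at 50 weeks alone, 145 of them (40.4%) by a bound of at least 2-fold, and 1346 were above background at 10 weeks alone, 242 of them (18.0%) by such a bound. A bound divides the measured level by the lowest signal that counted as above background on the other array. Where the probe's own signal on that array was higher, it was used instead. The split between higher and lower depended on the scaling: scaling to the median signal gave 563 higher and 506 lower, and scaling to spike-in probes gave 217 higher and 1281 lower. These scalings moved the median of all genes to 0.13 and to -0.29. Normexp background correction, which shrinks the differences of dim probes, gave 166 higher and 279 lower and put 66 of the named genes under 2-fold.

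The 2 null arrays differed less: 101 of 17245 genes were at least 2-fold higher at 50 weeks (0.586%) and 435 were at least 2-fold lower (2.52%). Of 392 genes higher in wild type and measured on all 4 arrays, 238 (60.7%) had a positive difference in the null pair, 24 were at least 2-fold higher there too and 17 were at least 2-fold lower. Of 553 genes lower in wild type, 485 (87.7%) had a negative difference in the null pair, 138 were at least 2-fold lower there too and 1 was at least 2-fold higher. Those 138 genes were 25.0% of the wild-type genes and 36.8% of the null genes that were 2-fold lower. Over all 16583 genes measured on the 4 arrays, 53.9% had a positive difference in the null pair. There 85 of them were at least 2-fold higher at 50 weeks and 375 were at least 2-fold lower. The differences of the 2 genotypes over these genes had a Pearson correlation of 0.379, a description over genes that share their arrays.

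**Figure D1:**
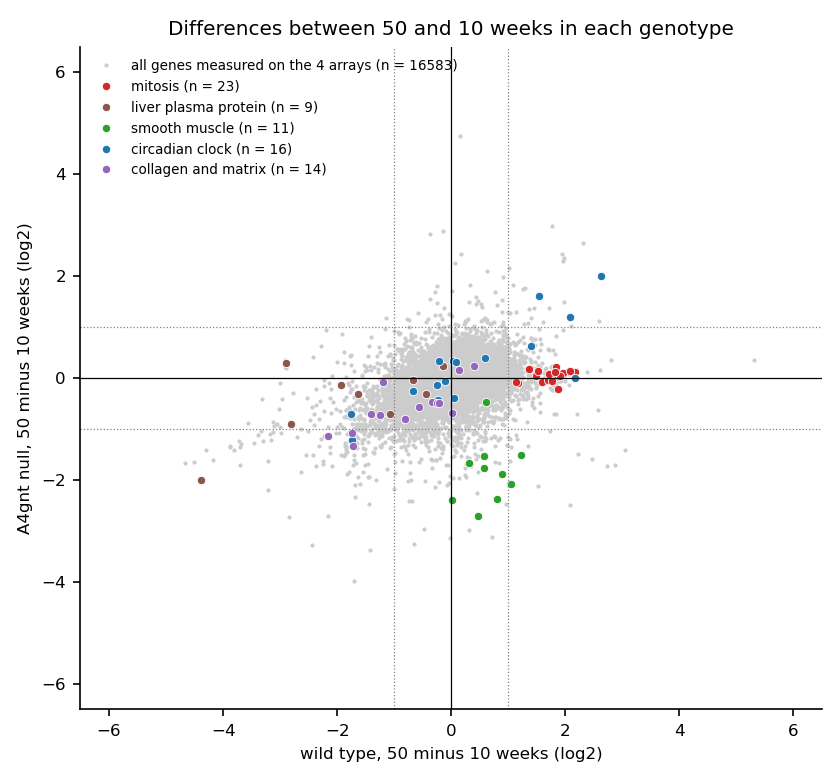
Difference between 50 and 10 weeks (log2) in wild type on the horizontal axis and in A4gnt null on the vertical axis, 1 point per gene measured on all 4 arrays, with 1 mouse per array. Most points lie near 0. Mitosis genes lie to the right and near 0 in the null, and liver plasma protein genes lie to the left. Smooth muscle genes lie to the right and below 0 in the null (medians 0.61 and -1.88). Collagen and matrix genes lie mostly to the left, and circadian clock genes lie on both sides.

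The places of the wild-type arrays among the 4 were counted. Among the 392 genes that were higher at 50 weeks the wild-type 10-week array was the lowest of the 4 for 349 (89.0%). The wild-type 50-week array was the highest for 137 of them (34.9%). Among the 553 lower genes the 10-week array was the highest of the 4 for 469 (84.8%), while the 50-week array was the lowest for 223 (40.3%). Over all 16583 genes the 10-week array was the lowest for 35.2% and the highest for 30.4%. The 50-week array was the lowest for 16.5% of them and the highest for 21.6%. These shares are fixed in part by the choice of genes, which used both wild-type arrays. No second wild-type mouse of 10 weeks was measured, so no value can be given without that array.

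Genes of mitosis were higher at 50 weeks as a group. All 23 measured members of the list of 25 were at least 2-fold higher, with a median difference of 1.81 against 0.04 over all genes, and Cenpf and Aurkb were not above background. Mki67, the proliferation marker Ki-67, was at 3.63 at 10 weeks and 13.5 at 50 weeks, 3.71-fold higher (1.89 ± 0.20 array error), and its second probe gave 2.11. The probe lies at chr7:142881591-142881650 (mm9, minus strand). The null arrays read 16.5 and 17.1 for it, so the wild-type 10-week mouse was the low one of the 4. Plk1, a kinase of mitotic entry, was at 1.34 and 5.68 in wild type and at 7.35 and 8.02 in null. Kif11, the motor that separates spindle poles, was at 0.0609 and 0.272 in wild type and at 0.333 and 0.362 in null. Both followed the same order, lowest in wild type at 10 weeks and next in wild type at 50 weeks.

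Cyclins and their kinase showed the same pattern. Ccnb1, cyclin B1, was at 0.751 and 2.68 in wild type (3.57-fold higher), and Ccnb2, cyclin B2, was at 1.09 and 4.51 (4.12-fold higher). Cdk1, the kinase they activate, was at 0.454 and 1.02 (2.25-fold higher). Foxm1, the transcription factor that drives many of these genes, was 3.66-fold higher at 0.183 and 0.671, and Birc5, survivin of the chromosomal passenger complex, 3.8-fold higher at 4.55 and 17.3. Hmmr had the smallest difference of the 23, 1.13. In all 23 genes the wild-type 10-week level was the lowest of the 4 arrays. The list's summed level was 21.1 at 10 weeks and 76.1 at 50 weeks in wild type, against 102.3 and 107.2 in null, where the median difference was 0.05. With normexp background correction, which shrinks differences of dim probes, the median was 1.52 and Kif11, Bub1, Cdk1, Bub1b, Kif23 and Hmmr were under 2-fold. One of 2 probes of Tpx2, a spindle assembly factor, read 1.49 and the other 0.32.

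**Figure D2:**
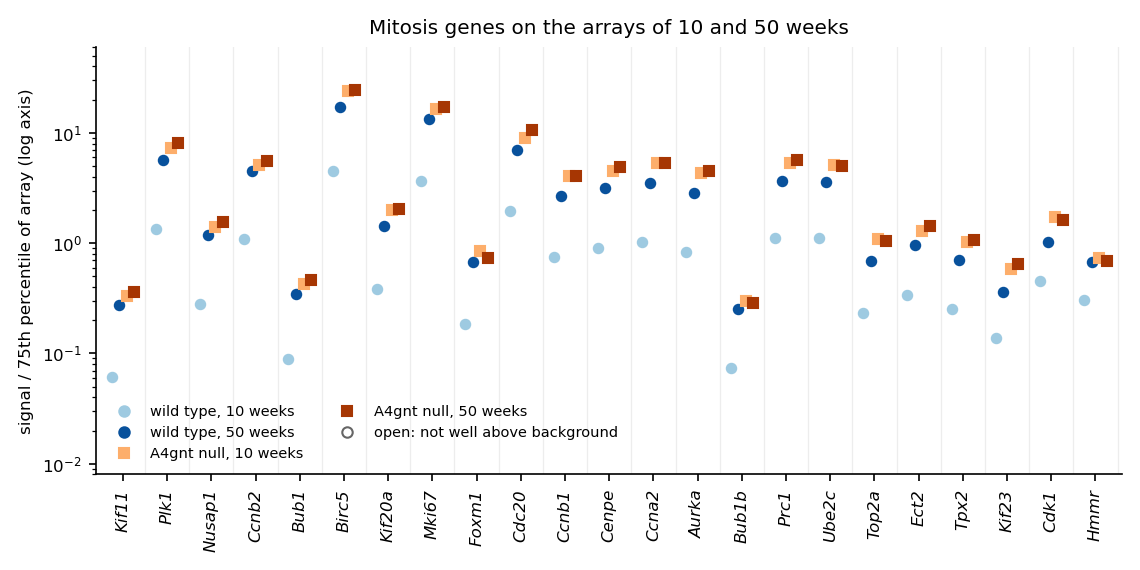
Scaled level (log axis) of the 23 measured mitosis genes on the 4 arrays of 10 and 50 weeks, 1 mouse per point, with wild type and A4gnt null marked apart. In each gene the wild-type 10-week point is the lowest of the 4.

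The promoters of mitotic genes are known for a pair of elements, a CCAAT box bound by NF-Y and the cell-cycle homology element TTTGAA bound by the DREAM and MuvB complexes. RefSeq promoters (GRCm38.p6, 250 bases before to 50 after the start) matched 20 of the 25 listed genes by symbol. CCAAT was found in 18 of the 20 (90%) against 37.9% of 27025 promoters of that length, TTTGAA in 15 (75%) against 18.1%, and both in 15 (75%) against 7.12%, on either strand, with overlaps between the motifs not removed. The promoters of the 3 genes with the largest differences that held both are printed on the gene's strand with both motifs or their reverse complements in capitals, to show the spacing of the elements around the start. Kif11 lies at chr19:37376132-37376431 (plus strand), with its CCAAT 45 and its TTTGAA 19 bases before the start, Plk1 at chr7:122159185-122159484 (plus strand), and Ccnb2 at chr9:70421505-70421804 (minus strand).
Kif11: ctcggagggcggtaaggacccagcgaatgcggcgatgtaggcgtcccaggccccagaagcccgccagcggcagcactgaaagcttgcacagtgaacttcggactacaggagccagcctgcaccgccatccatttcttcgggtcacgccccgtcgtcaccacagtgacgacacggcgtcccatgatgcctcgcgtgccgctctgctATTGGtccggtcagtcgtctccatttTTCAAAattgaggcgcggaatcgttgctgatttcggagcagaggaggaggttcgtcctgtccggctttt
Plk1: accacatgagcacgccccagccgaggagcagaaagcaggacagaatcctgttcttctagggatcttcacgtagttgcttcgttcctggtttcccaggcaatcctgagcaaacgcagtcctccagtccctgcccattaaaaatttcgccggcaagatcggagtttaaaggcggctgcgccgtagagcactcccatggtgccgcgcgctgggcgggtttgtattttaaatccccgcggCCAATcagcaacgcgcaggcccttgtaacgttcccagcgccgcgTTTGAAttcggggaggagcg
Ccnb2: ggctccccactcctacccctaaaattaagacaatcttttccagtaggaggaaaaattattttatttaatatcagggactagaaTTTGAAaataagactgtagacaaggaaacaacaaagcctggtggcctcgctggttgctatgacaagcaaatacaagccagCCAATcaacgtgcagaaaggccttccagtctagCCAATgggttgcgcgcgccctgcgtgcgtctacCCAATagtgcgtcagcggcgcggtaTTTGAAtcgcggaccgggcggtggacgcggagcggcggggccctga
In these windows Plk1 held its CCAAT 14 bases before and its TTTGAA 30 bases after the start. Ccnb2 held 3 CCAAT boxes, at 87, 54 and 21 bases before the start, and TTTGAA at 167 bases before and 4 after it. A match is a description of letters, and binding was not measured.

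DNA replication genes differed in the same direction with smaller differences. All 25 measured members of the list of 26 were higher at 50 weeks, 1 of them by 2-fold, with a median of 0.61. That one was Tk1, thymidine kinase, at 1.99 and 6.13 in wild type (3.08-fold higher) and at 7.66 and 7.12 in null. Pcna, the sliding clamp, was at 6.29 and 7.46, a difference of 0.25, and Mcm2 and Mcm5 of the replicative helicase had differences of 0.31 and 0.53. With scaling to spike-in probes the list's median was 0.27, and the smallest differences, that of Pcna among them, were no longer positive. The wild-type 10-week array was the lowest of the 4 for 24 of the 25.

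Clustered histone genes, a list added after their values had been seen, supply the histones made in S phase. Of 44 on the array 36 were measured, 34 were higher at 50 weeks, 10 were at least 2-fold higher and none was 2-fold lower, with a median of 0.87 in wild type and -0.15 in null. H2bc18, a histone H2B, was at 0.927 and 4.25 in wild type and at 5.09 and 5.64 in null. H2ac4, a histone H2A, was at 17.4 and 63.0. H2ac18 had a difference of -0.45. Probes of these near-identical genes may read each other's RNA, so single members are uncertain.

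The stem cell and Wnt target list did not differ in 1 direction: 1 of 15 measured genes was 2-fold higher and 1 was 2-fold lower, with a median of -0.33. Tnfrsf19, the Wnt target Troy found in gland-base cells, was at 0.503 and 0.129, 3.90-fold lower, and at 0.205 and 0.0976 in null. Smoc2, a matrix protein of stem cells, was at 0.478 and 1.07, while in null it was lower at 50 weeks (3.95 and 1.73). Lgr5, a marker of gland-base stem cells, was at 0.314 and 0.221, a difference of -0.51. The senescence and p53 target list had a median of -0.03, with 0 of 10 genes 2-fold higher and 1 lower, and its median changed sign with the scaling.

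The largest positive differences were in genes of pancreatic acinar cells, which make digestive proenzymes. Cpb1, carboxypeptidase B1, was at 0.0654 at 10 weeks and 3.76 at 50 weeks, 57.5-fold higher (5.84 ± 0.25 array error). Its probe lies at chr3:20149467-20149526 (mm9, minus strand). Ctrb1, chymotrypsinogen B1 (probe at chr8:114210454-114210513, minus strand), was at 0.215 and 8.57, 39.8-fold higher (5.31 ± 0.21). The null arrays read 0.235 and 0.300 for Ctrb1, and 0.0563 at 50 weeks for Cpb1, which was not above background at 10 weeks there.

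Of the list's 36 genes, 34 were on the array, 24 were measured on both wild-type arrays and 9 were above background at 50 weeks alone. Of the 24, 8 were higher and 2 lower by 2-fold or more, with a median of 0.41 against 0.04 over all genes. The lower bounds for genes seen at 50 weeks alone were at least 447-fold higher for Cela3a, an elastase-like protease at 13.4 at 50 weeks, at least 153-fold for Cpa1, carboxypeptidase A1, at least 108-fold for Cela3b, a second elastase-like protease, and at least 68.8-fold for Pnlip, pancreatic lipase. Gp2, Cela2a and Reg2 had bounds of at least 32.4, 30.3 and 13.5-fold. In the null pair the bound for Cela3a was at least 2.72-fold higher.

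Acinar genes that were well above background at 10 weeks too were mixed. Clps, colipase, was at 953 and 1205, and Pla2g1b, the secreted phospholipase of pancreatic juice, at 828 and 652. Amy2a5, pancreatic amylase, was at 87.6 and 338 in wild type (3.86-fold higher) and at 12.5 and 68.0 in null. Pnliprp2, a lipase relative, was at 6.91 and 2.72, 1.34 lower on the log2 scale, and its null difference was -1.37. Spink1, the acinar trypsin inhibitor, was 7.35-fold higher in wild type and had a difference of -1.70 in null. Ptf1a, an acinar transcription factor, had a difference of -0.63, and Rbpjl, its partner, 0.97. The summed level of the 34 genes on the array was 1991 at 10 weeks, with 24 above background, and 2376 at 50 weeks, with 33. In null it was 1685 and 1297. Of 5 pancreatic islet genes measured, none was 2-fold different. The part of neighbouring pancreas in these differences was not tested.

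**Figure D3:**
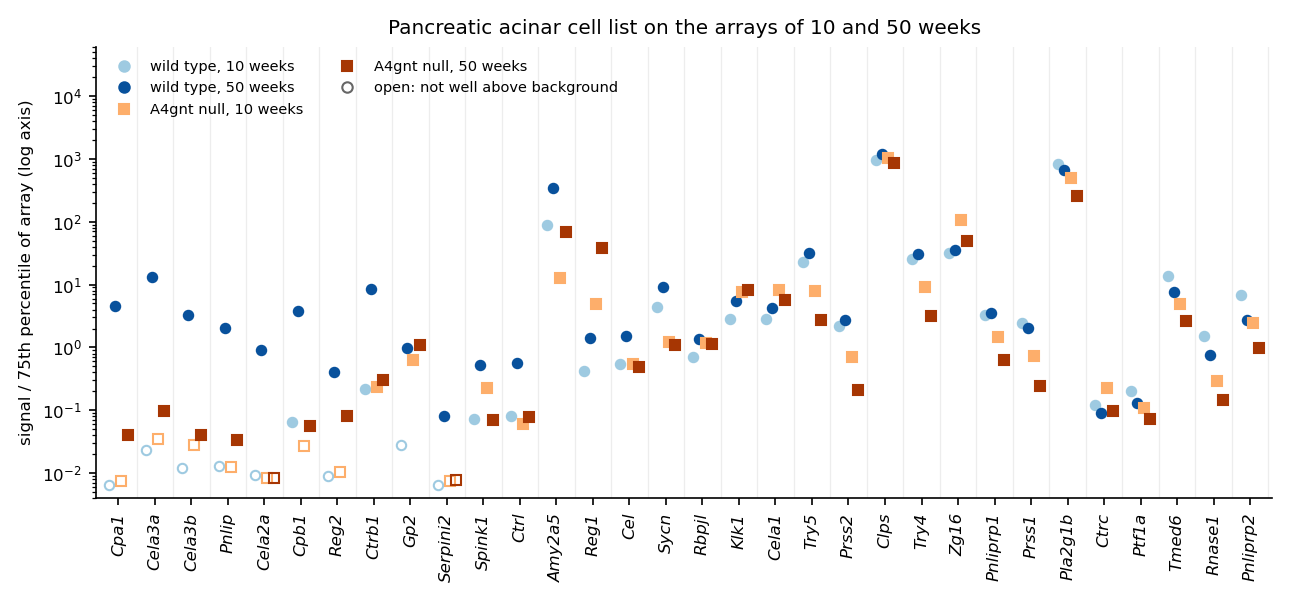
Scaled level (log axis) of genes of the pancreatic acinar cell list on the 4 arrays of 10 and 50 weeks, 1 mouse per point, with genotypes marked apart. Cpb1 and Ctrb1 stand at 3.76 and 8.57 in the wild-type 50-week mouse and far lower on the 3 other arrays, while Clps is at 953 and 1205 in the wild-type mice.

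Genes of liver made up much of the opposite end. Of 13 liver plasma protein genes measured on both arrays (of 15 listed), 10 were at least 2-fold lower at 50 weeks and none was higher by 2-fold, with a median of -2.82. Ahsg, the plasma glycoprotein fetuin-A, was at 15.4 at 10 weeks and 0.738 at 50 weeks, 20.9-fold lower (-4.39 ± 0.21 array error), and at 0.461 and 0.115 in null. Alb, albumin, was at 9.59 and 1.36 in wild type, 7.04-fold lower, and at 0.119 and 0.0639 in null. Serpina1a, the protease inhibitor alpha-1-antitrypsin, was at 24.9 and 3.34 in wild type and at 0.283 and 0.349 in null. The wild-type 10-week mouse was the highest of the 4 for each.

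Fibrinogen was divided. Fgb and Fgg, its beta and gamma chains, were at 2.70 and 0.160 and at 1.81 and 0.0960, 16.9-fold and 18.9-fold lower, and were not above background in either null mouse. Fga, the alpha chain, was at 0.0986 and 0.0725, a difference of -0.44. Cyp2e1, an ethanol-oxidising cytochrome, was at 4.07 and 0.434, and Apoh, a phospholipid-binding apolipoprotein, had a difference of -2.84. Ttr, the thyroid hormone carrier, differed by -0.66. Of the 9 genes measured on all 4 arrays, the wild-type 10-week mouse was the highest for 8. The summed level of the 14 genes on the array was 119.7 at 10 weeks and 30.6 at 50 weeks in wild type, with 14 and 13 above background. In null it was 15.9 and 12.5, with 9 above background on each array.

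A list of liver metabolism and clotting genes, added after values had been seen, had 18 of 30 measured, 13 of them at least 2-fold lower and none 2-fold higher, with a median of -2.44 (-1.46 with normexp). The summed level of all 30 was 740 at 10 weeks, with 26 above background, and 764 at 50 weeks, with 18. The sums include F10, a clotting factor, at 702 and 754, whose second probe gave -1.83, so its difference is uncertain. Igfbp1, a hepatic binding protein of insulin-like growth factors, was at 6.69 at 10 weeks and not above background at 50 weeks, at least 178-fold lower. Pck1, the gluconeogenic carboxykinase, was at 1.40 and 0.112, 12.6-fold lower, and Bhmt, which remethylates homocysteine, was at 3.92 and 0.396, 9.91-fold lower. Mat1a, Itih3, Hpd and Agxt were above background at 10 weeks alone, by at least 20.3, 17.7, 16.4 and 15.5-fold. Hamp, the iron hormone hepcidin, was at 2.20 and 0.471 in wild type and at 0.526 and 0.511 in null.

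Of 15 cytochrome P450 and aldehyde dehydrogenase genes 1 was at least 2-fold higher and 4 were lower, with a median of 0.01 that changed sign with the scaling. In the Cyp4a family of fatty acid hydroxylases, also a list added after values had been seen, all 4 measured genes were lower, led by Cyp4a14 at 9.46 and 0.479 (19.8-fold lower). Serpina3k and Serpina3m, liver serine protease inhibitors, had differences of -3.87 and -3.91, and Serpina3n, a relative made in many tissues, -3.15, with -1.21 in null. Sult1a1, a phenol sulphotransferase, was at 9.16 and 0.776. The part of RNA from adjoining liver was not tested.

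**Figure D4:**
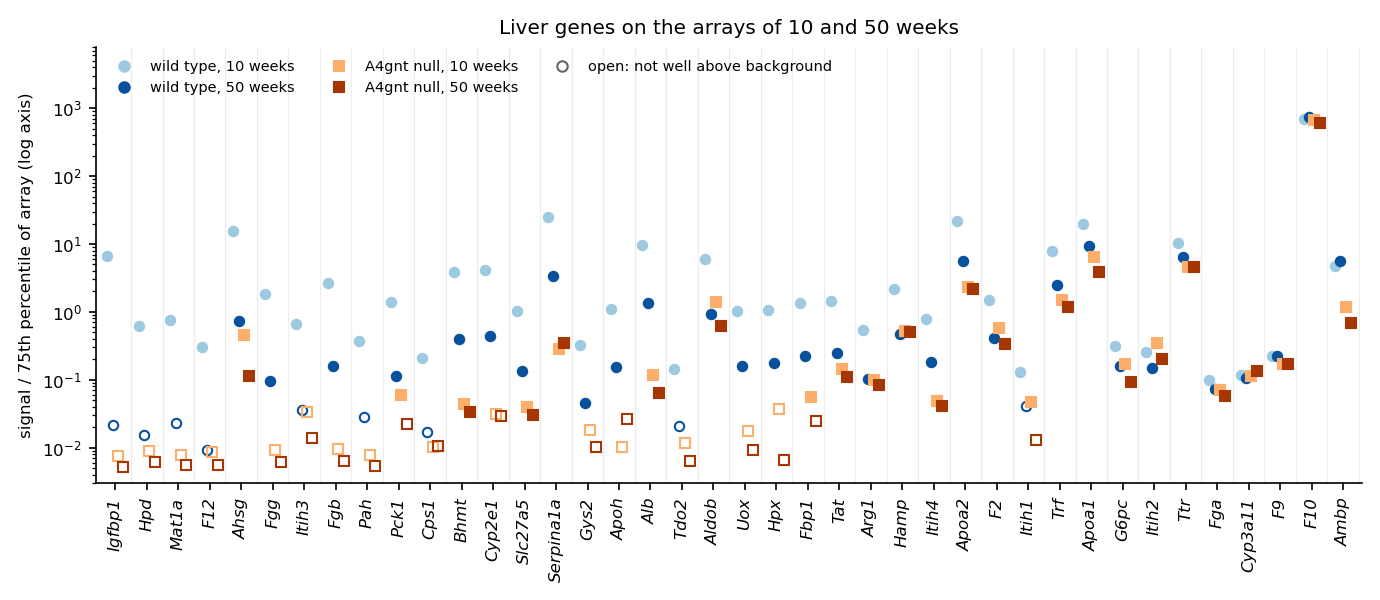
Scaled level (log axis) of liver plasma protein genes and of added liver metabolism and clotting genes on the 4 arrays of 10 and 50 weeks, 1 mouse per point. The wild-type 10-week points lie above the other 3 for most genes, as for Alb at 9.59 against 1.36 in the wild-type 50-week mouse and 0.119 and 0.0639 in the null mice.

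Hepatocyte promoters are known for sites of HNF1, whose palindrome is built of the letters GTTAAT. RefSeq promoters matched 12 of the 15 listed plasma protein genes, and 5 (41.7%) held GTTAAT or its reverse complement, against 7.20% of all 27025. Among the added metabolism and clotting genes, 6 of 24 matched promoters (25.0%) held it. The 3 lower genes with the largest differences that held the motif are printed on the gene's strand with the motif in capitals, to show that it lies just before the start in each. Fgb lies at chr3:83049814-83050113 (minus strand), Serpina1a at chr12:103863570-103863869 (minus strand) and Alb at chr5:90460620-90460919 (plus strand), all in GRCm38.p6.
Fgb: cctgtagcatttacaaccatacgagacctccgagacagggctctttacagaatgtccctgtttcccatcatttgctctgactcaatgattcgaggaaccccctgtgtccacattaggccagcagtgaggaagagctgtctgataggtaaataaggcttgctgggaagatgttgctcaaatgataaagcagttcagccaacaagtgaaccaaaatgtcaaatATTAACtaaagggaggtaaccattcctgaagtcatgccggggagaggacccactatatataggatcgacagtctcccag
Serpina1a: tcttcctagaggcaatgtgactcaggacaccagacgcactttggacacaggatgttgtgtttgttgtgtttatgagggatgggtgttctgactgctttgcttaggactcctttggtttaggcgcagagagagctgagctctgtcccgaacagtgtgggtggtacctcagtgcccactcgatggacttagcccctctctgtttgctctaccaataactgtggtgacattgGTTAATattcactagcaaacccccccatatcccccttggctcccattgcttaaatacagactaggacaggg
Alb: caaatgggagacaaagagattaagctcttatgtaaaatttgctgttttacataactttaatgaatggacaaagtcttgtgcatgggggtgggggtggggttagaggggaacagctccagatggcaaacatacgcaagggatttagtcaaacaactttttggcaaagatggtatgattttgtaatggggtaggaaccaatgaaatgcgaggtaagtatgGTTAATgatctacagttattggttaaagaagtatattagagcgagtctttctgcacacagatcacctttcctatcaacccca
The capitals start 29 bases before the start in Fgb, 21 in Serpina1a and 32 in Alb. Occupancy of these letters was not measured.

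A family of repeated retroelement-like transcripts was among the genes furthest below their 10-week level. It was chosen after the values had been seen, as every gene whose array description reads similar to the gag or pol protein, the structural and the replication polyproteins of retroviruses and their endogenous relatives. Of 22 such predicted genes on the array 16 were measured, 4 gag-like and 12 pol-like, and all 16 were at least 4-fold lower at 50 weeks, 16 of the 108 genes that were so. The median difference was -3.57, with a range from -4.67 to -2.51. Gm3459, a pol-like predicted gene, was at 27.5 at 10 weeks and 1.08 at 50 weeks in wild type, 25.4-fold lower (-4.67 ± 0.20 array error), and at 4.29 and 1.36 in null. Gm3651, a gag-like predicted gene, was at 161 and 12.5 in wild type and at 59.5 and 24.3 in null. All 16 had the same order of levels, highest in wild type at 10 weeks, then null at 10 weeks, null at 50 weeks and wild type at 50 weeks.

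In null, 13 of the 16 were at least 2-fold lower at 50 weeks, with a median of -1.25. A130040M12Rik, a non-coding RNA whose accession the array lists with those of gag-like members, was at 95.8 and 6.5 in wild type and at 39.7 and 15.8 in null. The probes map to 7 chromosomes, and 12 of the 16 share a run of 20 bases with another member's probe, so the members are not separate measurements of separate loci.

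Genes of keratinised squamous epithelium were higher at 50 weeks, the late cornified envelope family most of all. This family, added after values had been seen, encodes proteins cross-linked into the horny layer. Of 20 on the array 19 were measured and 17 were at least 2-fold higher, with a median of 2.48, while 3 were measured on both null arrays. With normexp the median was 1.46. Lce1h was at 0.0437 and 0.363, 8.31-fold higher (3.05 ± 0.32 array error), with its probe at chr3:92567272-92567331 (mm9, minus strand). In null Lce1h went the other way, at 0.213 at 10 weeks and not above background at 50 weeks, at least 8.48-fold lower. Lce3a, at chr3:92729210-92729269, was at 0.405 and 2.33, and was not above background in null. Lce1a2 was at 3.96 and 3.87 (its second probe gave 1.48), and Lce1j had a difference of 0.42. The summed level was 7.74 and 22.0 in wild type, and 4.20 and 3.59 in null. Probes within the family may read neighbouring members, which are closely alike.

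Other squamous genes followed in part. On the forestomach squamous cell list 4 of 16 measured genes were at least 2-fold higher and 1 was lower, with a median of 0.58 in wild type and 0.03 in null. Krt15, a basal keratin, was at 0.0531 and 0.160, 3.01-fold higher. Krt5 and Krt14, the basal keratin pair, had differences of 0.68 and 0.34, and Trp63, the squamous transcription factor p63, 0.17. Ivl, the envelope protein involucrin, was at 0.143 and 0.0611, 2.33-fold lower. Chosen after their values were seen, Lor, the main envelope protein loricrin, was at 3.46 and 9.42, and Flg, the filament aggregator filaggrin, at 0.197 and 0.477. Krt15, Pkp1, Sprr3 and Ivl were under 2-fold with normexp, and Cnfn, Pkp1 and Sprr3 with scaling to spike-in probes. The summed level of the 20 genes on the array was 46.2 and 41.3 in wild type, with 17 above background on each array. In null it was 38.6 and 42.3. The part of forestomach tissue in the samples was not tested.

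Intestinal genes differed in both directions. Of 13 measured on the list of 19, 8 were higher at 50 weeks, 4 of them by 2-fold or more, and 3 were lower by 2-fold or more, with a median of 0.61, against -0.70 in null. Alpi, the brush border alkaline phosphatase, was at 0.202 and 1.67 in wild type, 8.28-fold higher (3.05 ± 0.21 array error), and at 3.36 and 1.27 in null. Fabp2, the enterocyte fatty acid carrier, was at 12.2 and 43.7 in wild type and at 17.4 and 16.6 in null. Cdx2, the intestinal homeobox factor, was above background at 50 weeks alone in wild type (at least 4.08-fold higher) and at 0.288 and 0.228 in null. Muc2, the goblet cell mucin, was seen at 50 weeks alone, by at least 4.07-fold. Other enterocyte genes did not go the same way: Fabp1, a fatty acid carrier, differed by 0.03, Anpep, a brush border peptidase, by -0.72, and Mttp, which loads lipoproteins, by -0.82. The wild-type 10-week mouse was thus the low one for Alpi, Fabp2 and Cdx2.

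The 3 members lower by 2-fold or more, Apoc3, Apoa4 and Apoa1, are apolipoproteins that liver also makes, with differences of -2.63, -1.34 and -1.08. Prap1, a secreted protein of gut and other epithelia, was at 0.262 and 1.75 in wild type and at 16.0 and 4.82 in null. The antral list, of 4 genes, had a median of 0.77. In it Pdx1, the homeobox factor of antrum, duodenum and pancreas, was at 0.116 and 0.273 (2.35-fold higher), and Gast, gastrin, was at 19.7 and 32.3 in wild type and at 8.6 and 0.993 in null. How much antrum or duodenum each sample held was not tested.

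Most genes of the acid- and pepsinogen-secreting lineages were lower at 50 weeks, the greater part by less than 2-fold. Of 14 parietal cell genes 12 were lower, 1 by 2-fold, with a median of -0.51 in wild type and -0.27 in null. Atp4a, the proton pump's catalytic subunit, was at 85.7 and 45.8 in wild type and at 22.7 and 14.8 in null, and Atp4b, its beta subunit, had a difference of -0.43. Aqp4, a water channel of parietal cells, was at 1.28 and 0.466, 2.74-fold lower. The wild-type 10-week mouse was the highest of the 4 for 11 of 13 genes.

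Of 8 chief cell genes measured 2 were at least 2-fold lower and none higher, with a median of -0.68 in wild type and -0.90 in null. Pga5, a pepsinogen A, was at 6.17 and 1.14 in wild type, 5.41-fold lower (-2.44 ± 0.20 array error), and at 9.17 and 0.943 in null. Cblif, the intrinsic factor that mouse chief cells make, was at 245 and 112 in wild type and at 90.6 and 44.3 in null. Pgc, pepsinogen C, was at 1099 and 776, a difference of -0.50, and its second probe gave -1.18. Chia1, the acidic chitinase, had a difference of 0.05.

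The mucous lineages differed little. None of 11 surface mucous cell genes was 2-fold different and 10 were higher, with a median of 0.18 that became -0.16 with scaling to spike-in probes. Muc5ac, the surface mucin, was at 265 and 300, and the stomach peptides Tff1 and Gkn1 had differences of 0.28 and 0.25. Of 9 gland mucous cell genes 1 was 2-fold lower, Spdef, a factor of mucous cell maturation, at 38.3 and 18.1. Muc6, the gland mucin, was at 10.2 and 6.12, a difference of -0.74, and the list's median of -0.27 became 0.04 with normexp background correction. Spdef itself was under 2-fold with scaling to the median.

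Mucin glycosyltransferase genes had a median of 0.18, which became -0.15 with scaling to spike-in probes. B4galnt2, which builds the Sda antigen, was at 9.41 and 3.47 in wild type (2.71-fold lower) and at 3.27 and 0.590 in null. Gcnt1, a core 2 branching enzyme, had a difference of -1.39, and Chst4, a GlcNAc sulphotransferase, 1.17. Among metaplasia markers 1 of 9 was 2-fold higher, the membrane mucin gene Muc4, at 0.710 and 1.80 in wild type and at 3.42 and 7.21 in null. Their median was 0.51. Fcgbp, a mucus protein, was at 1.40 and 8.39 in wild type (6.00-fold higher) and at 6.92 and 15 in null.

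Endocrine genes went both ways, 3 of 23 at least 2-fold higher and 2 lower, with a median of -0.03 whose sign changed with the background correction and with scaling to the median. Hdc, which makes the histamine of ECL cells, was at 2.80 and 0.790 in wild type (3.54-fold lower) and at 1.26 and 0.458 in null. Sst, somatostatin, was at 32.2 and 14.2. Tph1, which makes serotonin, was at 0.682 and 2.42 (3.55-fold higher), and Cck and Gip, gut hormones, had differences of 1.56 and 1.13. Ghrl, ghrelin, differed by -0.54. Vgf, a neuroendocrine secretory protein, was at 1.19 and 0.128 in wild type, 9.25-fold lower (-3.21 ± 0.23 array error), and at 0.536 and 0.117 in null.

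Smooth muscle genes went in opposite directions in the 2 genotypes. All 11 measured were higher at 50 weeks in wild type, 3 by at least 2-fold, with a median of 0.61, while the null median was -1.88 with 10 genes at least 2-fold lower. Scaling to spike-in probes gave a wild-type median of 0.27, and the smallest differences were then no longer positive. Acta2, smooth muscle actin, was at 7.39 and 10.9 in wild type and at 11.8 and 3.46 in null. Myh11, smooth muscle myosin, was at 0.847 and 1.74 in wild type and at 1.20 and 0.286 in null. Mylk and Actg2, the myosin kinase and enteric actin, had differences of 1.22 and 1.05. The 3 were under 2-fold with scaling to spike-in probes and with normexp. The part of leftover muscle wall was not tested.

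Basement membrane and matrix genes were lower. Of 14 collagen and matrix genes 11 were lower, 6 by at least 2-fold, with a median of -0.69 in wild type and -0.64 in null. Col4a1 and Col4a2, the paired chains of basement membrane collagen IV, were at 0.852 and 0.191 and at 0.893 and 0.270, 4.47-fold and 3.31-fold lower. The corresponding null differences were -1.14 and -1.33. Sparc, a matrix-binding glycoprotein, was at 27.7 and 11.6, and Loxl1, an elastin cross-linker, had a difference of -1.74. The fibrillar collagen genes Col1a1 and Col3a1 had differences of -0.34 and 0.01.

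Fibroblast genes were 3 of 15 at least 2-fold lower and 1 higher, with a median of -0.44. Pdgfra, the PDGF receptor of fibroblasts, was at 0.546 and 0.169 (3.24-fold lower), and Lum, a collagen-binding proteoglycan, at 0.0436 and 0.155 (3.55-fold higher). Adamts1, a matrix protease, had a difference of -1.82. Of the hedgehog signalling genes on the BMP, activin and FGF list, Hhip and Gli1 were 2.84-fold and 2.66-fold lower. Probes of Ptch1, on the same list, read -0.38 and -0.04. With normexp, Pdgfra, Lum, Loxl1, Hhip and Gli1 were under 2-fold, and the collagen and endothelial medians were -0.39 and -0.37. Endothelial genes had a median of -0.70, with 2 of 9 at least 2-fold lower.

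Macrophage genes were lower, 5 of 14 by at least 2-fold and none higher by 2-fold, with a median of -0.74 in wild type and -0.36 in null. C1qa, a complement chain made by resident macrophages, was at 0.186 and 0.0764, and Mrc1, the mannose receptor, had a difference of -1.27. The wild-type 50-week mouse was the lowest of the 4 for 12 of 14, against 16.5% of all genes. With normexp their median was -0.24, and C1qa, Mrc1, Ctss, Tyrobp and Cd14 were under 2-fold. Of 7 neutrophil genes measured 3 were at least 2-fold lower. S100a8 and S100a9, the subunits of calprotectin, were at 0.406 and 0.0441 and at 1.86 and 0.391, with null differences of -1.62 and -1.63.

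Interferon response genes were lower in wild type and higher in null. Of 19 measured 17 were lower at 50 weeks in wild type, 6 by at least 2-fold, with a median of -0.51, and the null median was 0.33. Isg15, the ubiquitin-like interferon product, was at 3.18 and 1.58 in wild type and at 0.634 and 0.805 in null. Rsad2, the antiviral enzyme viperin, was at 0.240 and 0.0525 in wild type, 4.58-fold lower, and at 0.0378 and 0.0731 in null. The wild-type 10-week mouse was the highest of the 4 for 13 of 17. With normexp the median was -0.27, and Rsad2, Oas2, Irf7, Gbp3 and Ifit3 were under 2-fold.

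Immediate-early genes, which respond to stimulation without new protein synthesis, were lower in wild type: 12 of 13 were lower, 5 by at least 2-fold, with a median of -0.77 against 0.35 in null. Nr4a1, a nuclear receptor, was at 4.80 and 1.33 in wild type and at 2.10 and 2.12 in null. Ccn1 and Zfp36, a matricellular protein and an mRNA-decay factor, had differences of -1.50 and -1.25. Ccn1, Zfp36, Dusp1 and Fosb were under 2-fold with normexp. Fos and Jun, the subunits of AP-1, differed by -0.52 and 0.20. EGF family genes had a median of -0.40, with Ereg, the ligand epiregulin, at 0.502 and 0.142 (3.52-fold lower) and Errfi1, a feedback inhibitor of the receptor, at 9.33 and 4.10 (2.28-fold lower). Il11, a cytokine of stromal and epithelial stress, was at 0.476 and 0.0981 in wild type and at 1.31 and 2.03 in null.

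Complement and acute phase genes were 5 of 10 at least 2-fold lower, with a median of -0.88. Hp, haptoglobin, was at 4.72 and 0.848, and C3, the central complement protein, at 5.10 and 1.93. Both are abundant in liver as well as in mucosa. With normexp the complement and adipocyte medians were -0.37 and -0.51. Adipocyte genes had a median of -1.04, with 3 of 6 at least 2-fold lower, among them Fabp4 at 28.0 and 11.3, a fatty acid carrier of fat and of capillary endothelium. Adipoq and Cfd, secreted by fat cells, were above background at 50 weeks alone, by at least 2.47-fold and 21.0-fold. Hba-a1 and Alas2, of red cell precursors, were 3.54-fold and 3.23-fold lower and also lower in null (-1.89 and -2.34).

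Antibody and antigen genes were mixed. Of 5 plasma cell genes measured 1 was at least 2-fold higher and 1 lower, with a median of -0.07 that changed sign with normexp and with scaling to the median. Jchain, which joins IgA into dimers, was at 0.106 and 0.414 in wild type (3.91-fold higher) and at 0.202 and 0.569 in null. H2-Aa, an MHC class II chain, was at 0.0808 and 0.253, and the 7 MHC class II genes had a median of 0.42, while H2-Aa was under 2-fold with normexp. Derl3, an endoplasmic reticulum factor of plasma cells and other secretory cells, was at 5.52 and 1.86. Of 9 MHC class I genes 6 were lower, none by 2-fold, with a median of -0.10. Klra16, an NK cell receptor of the Ly49 family, whose members resemble each other, was at 0.0321 and 0.333 in wild type, 10.4-fold higher (3.38 ± 0.34). It lay near background in null, where it was 0.0302 at 50 weeks. T cell and B cell lists had medians whose sign changed with the scaling.

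Clock output genes differed in both genotypes. The circadian clock runs on a loop in which BMAL1 (Arntl) and CLOCK drive E-box genes, among them the Per genes and Dbp, and the PAR-zipper factors DBP, TEF and HLF act on D-boxes, where NFIL3 opposes them. Of 19 measured clock genes 5 were at least 2-fold higher at 50 weeks and 2 lower, with a median of 0.09 that changed sign with scaling to spike-in probes. In null, 3 of 16 were 2-fold higher and 1 lower. Dbp was at 1.66 and 10.2 in wild type, 6.16-fold higher (2.62 ± 0.20 array error), and at 1.61 and 6.47 in null. Tef was at 4.20 and 12.2 in wild type and at 3.07 and 9.37 in null. For both genes each 50-week mouse was above each 10-week mouse.

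Per3, a period gene, was at 0.0415 and 0.176 in wild type and at 0.0587 and 0.134 in null. Arntl was at 0.731 and 0.219 in wild type and at 0.513 and 0.222 in null, and Nfil3 was at 1.65 and 0.486 and had a null difference of -0.70. Hlf was at 0.0615 and 0.276 in wild type and at 0.0739 and 0.0735 in null, and did not follow there. Clock and Nr1d1 had differences of 0.03 and 0.05. Per3 and Hlf were under 2-fold with normexp. The labels give no hour of collection, so age and time of day cannot be told apart.

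RefSeq promoters matched 16 of the 19 clock genes. The E-box CACGTG was in 5 (31.3%) against 7.24% of all promoters, and the D-box TTATGNAA in 2 (12.5%) against 3.52%, on either strand. The 3 genes at least 2-fold higher that held either motif are printed on the gene's strand with the motif in capitals, to show the D-boxes of Per3 beside the E-boxes of Tef and Ciart, a transcriptional repressor of the loop. Per3 lies at chr4:151044616-151044915 (minus strand), Tef at chr15:81802423-81802722 (plus strand) and Ciart at chr3:95882179-95882478 (minus strand), in GRCm38.p6.
Per3: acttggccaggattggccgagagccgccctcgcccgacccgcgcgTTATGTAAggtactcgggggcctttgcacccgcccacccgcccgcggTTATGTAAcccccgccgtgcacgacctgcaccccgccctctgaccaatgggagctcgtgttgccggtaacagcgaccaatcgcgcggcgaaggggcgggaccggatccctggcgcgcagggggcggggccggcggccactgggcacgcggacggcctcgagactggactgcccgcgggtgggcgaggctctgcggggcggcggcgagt
Tef: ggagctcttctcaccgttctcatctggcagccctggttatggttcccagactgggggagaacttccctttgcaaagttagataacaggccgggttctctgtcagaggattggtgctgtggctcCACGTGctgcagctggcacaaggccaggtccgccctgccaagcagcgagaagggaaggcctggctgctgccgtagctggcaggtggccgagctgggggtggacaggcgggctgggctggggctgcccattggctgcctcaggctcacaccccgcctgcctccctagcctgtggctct
Ciart: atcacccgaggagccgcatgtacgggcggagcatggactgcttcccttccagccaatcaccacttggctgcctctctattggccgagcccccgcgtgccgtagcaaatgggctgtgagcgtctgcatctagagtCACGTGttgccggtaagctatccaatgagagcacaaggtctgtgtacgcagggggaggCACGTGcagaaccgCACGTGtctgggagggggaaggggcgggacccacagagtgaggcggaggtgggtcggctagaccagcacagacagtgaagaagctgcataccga
Per3 held its D-boxes 205 and 158 bases before the start, Tef its E-box 127 bases before, and Ciart its E-boxes 116, 58 and 44 bases before. Dbp and Hlf, also higher, had neither set of letters in this window. Ciart was at 0.0447 and 0.118 in wild type, 2.64-fold higher, and at 0.0743 and 0.116 in null.

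Cholesterol synthesis genes were all higher, with a median of 0.44 over 16 genes and none past 2-fold. With scaling to spike-in probes their median was 0.11, and the smallest differences were no longer positive. Stard4, a cholesterol carrier, was at 1.18 and 2.21. The wild-type 10-week mouse was the lowest of the 4 for all 16. Of 16 genes of protein folding and stress in the endoplasmic reticulum 14 were lower, none by 2-fold, with a median of -0.31. Of 23 respiratory chain genes 20 were lower, 1 of them by 2-fold, with a median of -0.08 that became 0.01 with scaling to the median.

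Single metabolic genes differed more than their lists. Pdk4, which shuts off pyruvate oxidation in fasting, was at 13.7 and 3.8 in wild type (3.61-fold lower) and at 1.77 and 1.36 in null. Cd36, a fatty acid transporter, was at 2.56 and 1.15. On the antioxidant and metallothionein list 2 of 15 measured genes were at least 2-fold higher and 1 was lower, with a median of 0.07. This median changed sign with scaling to spike-in probes. The 2 higher ones, Gstm3 and Nqo1, were at 2.36 and 8.77 and at 8.11 and 18.8, 3.72-fold and 2.32-fold higher. Their null differences were -0.05 and 0.05. The second probe of Gstm3 gave 0.85, and Nqo1 was under 2-fold with scaling to spike-in probes. The lower one, Hmox1, haem oxygenase, was at 4 and 1.19 in wild type and at 3.36 and 1.42 in null. The second probe of Hmox1 gave -0.77 in wild type, under 2-fold. Car3, a carbonic anhydrase of muscle, fat and liver, was at 0.0462 and 0.282.

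Some genes differed in the same direction in both genotypes, while for others below the wild-type difference alone is given. Obp2a, an odorant-binding lipocalin, was at 8.13 and 0.413 in wild type, 19.7-fold lower (-4.30 ± 0.21 array error), and at 1.35 and 0.509 in null. Defb7, a beta-defensin, was at 0.505 and 0.113 in wild type and at 0.272 and 0.0418 in null. Scgb2b20, an androgen-binding secretoglobin, was at 0.368 and 1.82 in wild type and at 0.295 and 1.86 in null, and 5 further genes of this family, added after values had been seen, were above background at 50 weeks alone in wild type. Among them Scgb2b18 was at least 25.1-fold higher in wild type and at 0.0625 and 0.842 in null. Scgb1b3 was lower in wild type, at 5.35 and 1.89. These secretoglobins are near-identical and may share signal. Cphx1, a homeobox gene, was above background at 10 weeks alone in wild type, at least 23.7-fold lower at 50 weeks. It was not above background on either null array. For Wdr92 1 probe read -3.12 and the other 0.19, so its difference is uncertain.

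**Figure D5:**
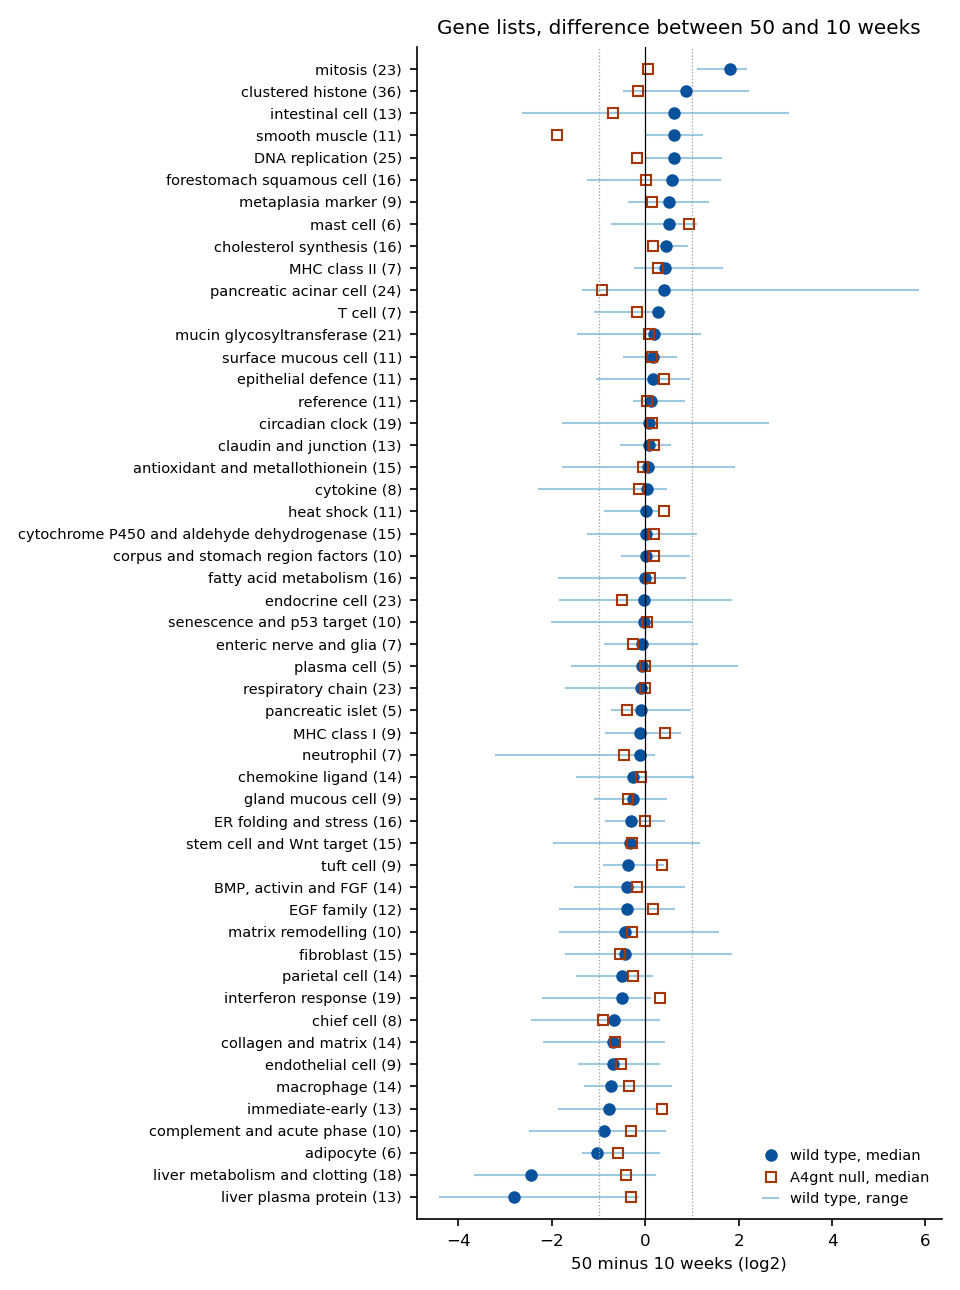
Difference between 50 and 10 weeks (log2) for 52 gene lists with at least 5 members measured on both arrays of each genotype (wild-type number in brackets), with filled points for the wild-type median, open squares for the A4gnt-null median and lines for the lowest to highest wild-type member. The mitosis list is at the top at 1.81 with its whole range above 1, the liver plasma protein list is at the bottom at -2.82, and the smooth muscle list is at 0.61 in wild type and -1.88 in null.

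Of the lists not yet described, mast cell genes had a median of 0.51 (1 of 6 at least 2-fold higher). Matrix remodelling genes had -0.42 (3 of 10 at least 2-fold lower and 1 higher), BMP, activin and FGF genes -0.39 (2 of 14 lower), tuft cell genes -0.37 (0 of 9 past 2-fold) and chemokine ligand genes -0.25 (3 of 14 lower and 1 higher). Of 3 lymphatic vessel genes 1 was at least 2-fold lower, with a median of -0.64. With normexp the tuft cell median became 0.01, and those of the BMP, activin and FGF list and the lymphatic vessel list were -0.00 and -0.04. Reference genes had a median of 0.13, and none of 11 was 2-fold different, but the median became -0.21 with scaling to spike-in probes. Heat shock genes had a median of 0.02 and claudin and junction genes likewise had none past 2-fold. Leaving out 13 lists of other tissues (pancreas, liver, intestine, squamous epithelium, muscle, fat, red blood cells and secretoglobins) left 403 genes at least 2-fold higher and 571 lower of 17018. Leaving out the mitosis, DNA replication and histone lists left 406 higher and 609 lower, and leaving out both left 369 and 571. Of 128 genes past 2-fold with at least 2 measured probes, 117 had all probes on the same side of 0.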

How the data were processed

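Cy3-labelled cRNA of 6 gastric mucosa samples was hybridised to 1-colour Agilent mouse arrays, 1 mouse per array, per the labels' protocols. The authors' deposited scanner files hold 1 processed signal intensity per spot, background-subtracted by Feature Extraction 10.7.1.1, with probe positions in mm9, per the file headers. The exon or UTR that a probe lies in was not analysed here. A deposited table of log2 values served as an alternative. In each of its columns the value equalled log2 of the processed signal plus 1 constant per array (-7.88 to -8.54) to within 0.001 for 100% of 39399 probes. It was thus not centred by gene, and its column medians were -3.56 to -3.89. Its direction follows the signal, and the basis of the constant is not given in the sources used here.

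Control spots and spots flagged as outliers were removed (124 and 109 flagged on the 10- and 50-week wild-type arrays, and 0 saturated), replicate spots were averaged, and log2 of the signal minus log2 of the array's 75th percentile was used. Replicate spots of a probe had a median SD of 0.0672 and 0.0680 (log2) on these arrays. Of the probes kept, 26044 took the current symbol through their accession, 3194 through their symbol, 930 through a synonym, and 9231 kept the array's name, with RefSeq GRCm38.p6 tables. For the 6394 of 31689 genes with several probes, the probe with the highest mean signal stands for the gene. A gene was called measured where its probe was well above background on both arrays, and 2-fold marks a call. The number of arrays limits the precision. No test was run, since each group is 1 mouse. Slide 1 holds all wild-type arrays, so the wild-type comparison lies within 1 slide. Slide 2 holds all null arrays, so levels of wild type and null set side by side come from different slides. The computation of differences was tested on simulated data.

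Named genes were the 15 largest differences and 6 largest bounds in each direction (genes with provisional names left out), the 5 largest per list, all members of lists with at least 50% past 2-fold, and up to 10 genes per direction past 4-fold in both genotypes. Genes of the 5 added lists, the gag-like and pol-like genes, defining markers given for their level, and Lor and Flg fall outside it. The comparison, its members and the 59 gene lists were chosen with earlier results of these data known. Alternatives were scaling to the array's median or to 8 spike-in controls, quantile normalization, normexp (limma 3.58.1, R 4.3.3, offset 50), the deposited log2 values, the mean of a gene's probes, no filter on dim probes and a filter 4 times brighter. Python 3.11.15, numpy 2.4.6 and pandas 2.3.3 were used. Some genes that the rule names are not reported here.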

Additional observations from a re-analysis of the deposited data

Results flagged for a closer look

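No group had the 4 samples that a check for outlying samples needs. Several genes lay on opposite sides of 0 by at least 2-fold in the 2 genotypes, and 2 list medians lay on opposite sides of 0, each genotype resting on 1 mouse per age, and these differences between genotypes were not tested. All are 50 minus 10 weeks on the log2 scale, wild type first and A4gnt null next.

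In gut epithelium, Alpi, the brush border phosphatase, differed by 3.05 and -1.41, and Prap1 by 2.74 and -1.73. The median of the intestinal cell list differed by 0.61 and -0.70. Spink1, the acinar trypsin inhibitor, differed by 2.88 and -1.70. In smooth muscle, Mylk differed by 1.22 and -1.51, Actg2 by 1.05 and -2.09, and Myh11 by 1.04 and -2.07, and the median of the smooth muscle list by 0.61 and -1.88. Smoc2, a matrix protein of stem cells, differed by 1.16 and -1.19. Aldh1a3, which makes retinoic acid, was the one with the opposite order, at -1.15 and 1.18.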

How the results depend on the processing

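The count of genes at least 2-fold higher at 50 weeks was 440, and that of genes at least 2-fold lower was 609. Scaling to spike-in probes gave 217 higher and 1281 lower, normexp background correction 166 and 279, a brighter filter on dim probes 274 and 383, and no filter 1632 and 1962. Scaling to the median (563 and 506), quantile normalization (484 and 595), the deposited log2 values (447 and 596), averaging all probes of a gene (438 and 599) and, chosen after seeing the data, leaving out the lists of other tissues (403 and 571) moved each count by less than 1.5 times. Of the genes named by rule and past 2-fold, normexp put 66 under 2-fold, scaling to spike-in probes 19, scaling to the median 10 and the mean of probes 3. No named gene past 2-fold changed sign under these settings. The medians of the mitosis, DNA replication, histone, liver, collagen, macrophage, interferon, immediate-early, smooth muscle and intestinal lists kept their sign under each of them. Brightness over background limits the dim genes, for which normexp shrinks differences. No paired analysis was possible because each group is 1 array.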
